A study of Mus musculus with 405 samples.

Results

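Astrocytes and the radial glia from which they descend were followed through 10 genes chosen by name: Gfap, Aqp4, Slc1a2, Slc1a3, Aldh1l1, Gja1, Glul, Sox9, S100b and Fabp7. All 10 were among the 23893 genes of the pyraclostrobin count table, and 9 of them, all but S100b, were among the 13304 genes of the chemical screen. The cells were primary cortical cultures from mouse embryos at embryonic day 15, the offspring of C57BL/6J mothers and CAST/EiJ fathers, grown in serum-containing medium at first and then given nucleoside drugs against dividing cells, so that the glia measured here were what such a culture still held. Chemicals or vehicle were added on day in vitro 7 for 24 h. The screen comprised 49 vehicle libraries and 344 libraries from 297 chemicals, of which 32 were topotecan at 0.3 uM, 282 chemicals had 1 library, and 257 chemicals were given at 10 uM. The count table held 4 libraries with pyraclostrobin at 0.1 uM and 4 with vehicle, numbered 428, 702, 703 and 704 in each group. The labels do not say whether these were separate cultures. The paper's figure legend gives fewer biological replicates than libraries, while its list of changed genes gives 4 sample replicates. The p-values therefore measure the spread between these libraries.

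Astrocytes clear glutamate from synapses through Slc1a3 (GLAST) and Slc1a2 (GLT-1) and convert it to glutamine with Glul, glutamine synthetase. They buffer water through the channel Aqp4 and are coupled by gap junctions of Gja1, connexin 43. Gfap is their intermediate filament, Aldh1l1 a folate enzyme used as a general astrocyte marker, S100b a calcium-binding protein and Sox9 a transcription factor of gliogenesis. Radial glia, the stem cells of the embryonic cortex, already express Slc1a3, Sox9 and the fatty acid binding protein Fabp7, while Slc1a2, Aqp4 and Aldh1l1 rise as astrocytes mature.

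The promoters of both glutamate transporters and of the connexin gene are shown so that the 2 transporters, which moved apart in some of the comparisons below, can be read beside Gja1, which rose. Each is the 250 bases before a RefSeq transcript start in GRCm38.p6, read 5′ to 3′ along the gene, with capitals marking a motif match. For Slc1a2 that start lies 47.8 kb inside the annotated gene, so its window is not the first promoter.

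Slc1a2, chr2:102706188-102706437, plus strand: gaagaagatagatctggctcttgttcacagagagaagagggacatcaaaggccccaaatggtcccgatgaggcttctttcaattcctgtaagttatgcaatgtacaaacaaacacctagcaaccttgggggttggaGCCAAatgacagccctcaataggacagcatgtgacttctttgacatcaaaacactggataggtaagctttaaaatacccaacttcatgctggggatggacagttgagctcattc

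Slc1a3, chr15:8710808-8711057, minus strand: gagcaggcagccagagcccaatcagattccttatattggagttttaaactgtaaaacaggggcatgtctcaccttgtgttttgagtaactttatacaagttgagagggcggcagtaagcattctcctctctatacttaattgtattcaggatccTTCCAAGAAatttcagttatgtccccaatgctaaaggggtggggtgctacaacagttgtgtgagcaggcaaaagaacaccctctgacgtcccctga

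Gja1, chr10:56377050-56377299, plus strand: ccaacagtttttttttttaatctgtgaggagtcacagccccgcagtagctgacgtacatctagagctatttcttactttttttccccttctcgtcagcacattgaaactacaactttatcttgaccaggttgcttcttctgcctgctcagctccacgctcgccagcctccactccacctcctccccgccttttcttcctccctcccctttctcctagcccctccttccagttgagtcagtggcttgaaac

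Of the 10 genes, 8 had a promoter in the table used. Both strands were searched for TTGGC, a core of the NFI site, for ACAAAG, a SOX core, and for TTCNNNGAA, the STAT motif. TTGGC lay in 4 of these 8 genes (Slc1a2, Glul, S100b and Fabp7) and in 41.6% of 32536 promoters of the same length. TTCNNNGAA was present only in Slc1a3 among the 8, 96 bases upstream, and in 7.04% of promoters. ACAAAG lay in none of the 8 and in 16.5% of promoters. The windows of Slc1a2, Aldh1l1 and Gfap matched mm9 at internal starts, 47.8, 64.4 and 3.71 kb inside the annotated genes, so that their letters do not describe the first promoter. Those of the other 5 genes matched within 0.0430 kb of the gene starts. A match describes these letters only.

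The 8 libraries of the count table held between 2409623 and 7833440 counts. The cultures were labelled as cortical neurons, and the 15 neuron markers summed to between 12036 and 13591 CPM (counts scaled to library size, with TMM factors) in vehicle, against 920 to 1663 for the 10 glial genes. Both libraries numbered 428, which are also in the screen, stood apart from the 3 others of their group for most of the glial genes. Fold changes and list counts are therefore given with and without them. This choice followed the values of the same genes. SEs and p-values without the 428 libraries thus describe only the libraries left and omit the spread that 428 adds. Vehicle library 428 held 1663 CPM of the 10 genes and the other vehicle libraries 920 to 938, and pyraclostrobin library 428 held 4176 CPM against 1404 to 1577.

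In vehicle cultures Fabp7 was the most abundant of the genes per length, at 134 ± 112 CPM per kb of exon (SD, n = 4). It was followed by Glul at 51.7 ± 16, Slc1a2 at 28 ± 5.28 and Slc1a3 at 27.1 ± 14 CPM per kb. Gja1 had 18.3 ± 8.03, Gfap 13.2 ± 15.1, Aqp4 5.88 ± 3.85, Sox9 4.33 ± 1.14 and Aldh1l1 2.14 ± 2.49 CPM per kb. S100b was last at 0.510 ± 0.428 CPM per kb, with 4, 3, 1 and 2 counts in vehicle libraries 428, 702, 703 and 704. Without vehicle library 428 the order was the same, but Fabp7 was 78 ± 6.28, Gfap 5.69 ± 1.05 and Aldh1l1 0.900 ± 0.315 CPM per kb (SD, n = 3), each lower by more than 1.5 times. Over all 4 libraries, of the neighbours in this order only Glul and Slc1a2 had ranges over the 4 libraries that did not overlap. The kit does not mark strand, so reads of Slc1a2, Aldh1l1 and Glul cannot be told apart from those of Gm13872, Gm15756 and 5830403L16Rik, which lie on the opposite strand over part of their exons.

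The first comparison asked how the glial genes responded to pyraclostrobin, a strobilurin fungicide that inhibits complex III of the mitochondrial respiratory chain. Gja1 and Sox9 rose, Slc1a3, Aqp4, Aldh1l1 and Gfap were higher by 1.55 to 2.28 on the log2 scale without passing the threshold, and Slc1a2, alone of the 9 genes tested, was lower in the mean. In the edgeR quasi-likelihood test with Benjamini-Hochberg adjustment at 0.01, 2 of the 9 rose and 0 fell, where 12.1% of all 12324 genes tested rose and 9.22% fell. The 9 genes had a median log2 fold change of 1.79, against -0.0021 for all genes. Without the libraries numbered 428, 8 of the 9 rose and Slc1a2 fell, where 39.8% of 11997 genes were called in either direction, 19.8% as higher. Both fits were unpaired. The paper calls its vehicle controls matched, and with the library number as a replicate block 7 of the 9 rose and 0 fell. These were Gja1, Sox9, Gfap, Aqp4, Slc1a3, Aldh1l1 and Fabp7, where 3135 genes were called in either direction. In this blocked edgeR fit the adjusted p was 1.49e-05 for Gfap, 1.31e-04 for Aqp4 and 7.13e-04 for Fabp7. Slc1a2 (adjusted p = 0.194) and Glul (0.0851) did not pass. The values for single genes below are from the unpaired fits. CPM are shares of a library, and the neuron markers summed to 5376 to 6984 CPM with pyraclostrobin against 12036 to 13591 CPM in vehicle. In these bulk cultures more glial cells, more RNA per glial cell and less RNA from other cells cannot be told apart. For fenamidone the paper reported no significant change in cell composition by immunostaining for neurons, astrocytes and microglia.

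Of the glutamate handling genes, Slc1a3 (mm9 chr15:8584124-8660764) read 410, 165, 182 and 168 CPM in vehicle libraries 428, 702, 703 and 704, and 1301, 453, 521 and 425 CPM in the pyraclostrobin libraries of the same numbers. Every pyraclostrobin library was above every vehicle library. The log2 fold change was 1.55 ± 0.40 (SE, adjusted p = 0.0117, edgeR), just short of the threshold of 0.01, and 1.44 ± 0.079 without the libraries numbered 428 (adjusted p = 4.43e-11).

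Slc1a2 (chr2:102498816-102630941) read 266, 405, 383 and 417 CPM in vehicle and 481, 220, 185 and 239 CPM with pyraclostrobin. The libraries numbered 428 were the lowest of the vehicle group and the highest of the pyraclostrobin group, and the groups overlapped. With all libraries the log2 fold change was -0.39 ± 0.27 (95% interval -1.05 to 0.28, adjusted p = 0.297, edgeR). Without 428 the remaining libraries did not overlap and Slc1a2 fell by 0.90 ± 0.081 (adjusted p = 2.75e-08).

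Glul (chr1:155747074-155756853) read 251, 149, 151 and 137 CPM in vehicle and 234, 208, 193 and 187 CPM with pyraclostrobin. Only vehicle library 428 was above the treated libraries. The log2 fold change was 0.26 ± 0.19 (adjusted p = 0.316, edgeR) and 0.43 ± 0.074 without 428 (adjusted p = 7.35e-05), the smallest rise of the 8.

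Gja1 (chr10:56097106-56110225) read 94.2, 45.1, 44.5 and 43.4 CPM in vehicle and 527, 174, 187 and 160 CPM with pyraclostrobin. The groups did not overlap, and the log2 fold change was 2.22 ± 0.41 (adjusted p = 0.00179, edgeR), or 1.98 ± 0.088 without 428 (adjusted p = 2.83e-12). Sox9 (chr11:112643538-112649074) read 25, 15.2, 15.9 and 15.6 CPM in vehicle and 100, 39.8, 60.9 and 43.4 CPM with pyraclostrobin. It did not overlap either and rose by 1.79 ± 0.30 (adjusted p = 9.41e-04, edgeR), or by 1.62 ± 0.16 without 428 (adjusted p = 1.39e-07). Slc1a3, Gja1 and Sox9 were the 3 genes with every treated library above every vehicle library, an arrangement found for 18.2% of all genes tested, with a further 16.9% arranged in the opposite way.

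Gfap (chr11:102748650-102762226) read 151, 21, 29.1 and 21.9 CPM in vehicle and 640, 60.1, 93.6 and 82.1 CPM with pyraclostrobin. The 3 treated libraries other than 428 were above their 3 vehicle counterparts but below vehicle library 428. The fold change of 2.01 ± 0.85 had an adjusted p of 0.0896 (edgeR), and it was 1.68 ± 0.16 without 428 (adjusted p = 6.15e-08). When pyraclostrobin library 428 alone was left out, the value was 0.51 (adjusted p = 0.585), and when vehicle library 428 alone was left out, it was 3.16 (adjusted p = 0.00625).

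Aqp4 read 61.7, 24.5, 20.9 and 17.9 CPM in vehicle and 293, 49.2, 71.2 and 58.8 CPM with pyraclostrobin. Its log2 fold change was 1.96 ± 0.60 (adjusted p = 0.0249, edgeR) with all libraries and 1.54 ± 0.15 (adjusted p = 1.07e-07) without 428. Aldh1l1 (chr6:90436421-90550197) read 26.4, 2.72, 3.91 and 5.55 CPM in vehicle and 91.8, 26.7, 34.3 and 20.1 CPM with pyraclostrobin. In both genes vehicle library 428 reached into the treated range. Aldh1l1 changed by 2.28 ± 0.67 (adjusted p = 0.0220, edgeR) with all libraries and by 2.64 ± 0.26 (adjusted p = 7.36e-08) without 428, the steepest of the 8 rises.

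Fabp7 (chr10:57504687-57508256), the radial glia marker, read 376, 93.8, 107 and 92.3 CPM in vehicle and 504, 190, 230 and 188 CPM with pyraclostrobin. Vehicle library 428 exceeded 3 of the 4 treated libraries, and the log2 fold change was 0.74 ± 0.48 (adjusted p = 0.261, edgeR), or 1.05 ± 0.091 without 428 (adjusted p = 1.71e-08). S100b (chr10:75716598-75723904) had 10, 2, 3 and 2 counts with pyraclostrobin and was not tested, and a difference was not detectable at this depth. Once the 428 libraries were removed, all 9 genes tested had groups that did not overlap, 8 of them in the direction of 28.6% of genes and Slc1a2 in that of 28.7%.

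**Figure D1:**
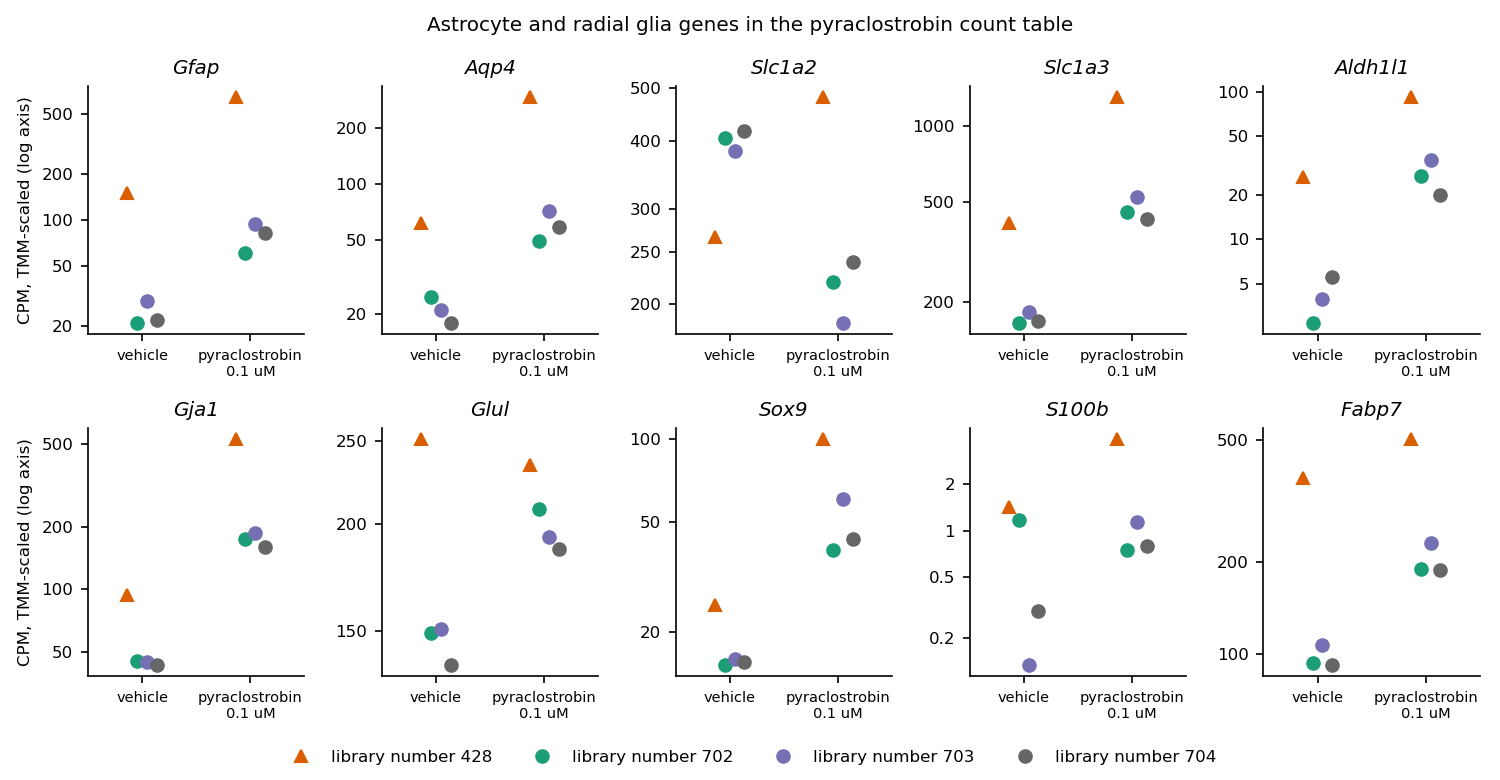
Level of each of the 10 genes in CPM (TMM-scaled, log axis that differs between panels) in 4 vehicle and 4 pyraclostrobin libraries, with 1 point a library and triangles for libraries numbered 428. In 8 panels the 3 circles move up from vehicle to pyraclostrobin, in Slc1a2 they move down, and the S100b points rest on 1 to 10 counts.

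Genes of other cell types moved in the same libraries, and their part in the results above was not tested. Of 28 other astrocyte genes tested, 11 rose and 1 fell (median log2 fold change 0.99), or 16 and 1 without 428. They included Gpc4, a glypican, at 2.33 ± 0.21 (adjusted p = 2.70e-05, edgeR), the peroxiredoxin Prdx6 at 2.21 ± 0.35 and the fatty acid activating enzyme Acsbg1 at 2.15 ± 0.43. Of 17 genes linked to reactive astrocytes, 9 rose and 0 fell (median 2.11; 13 of 15 rose without 428), with the adhesion receptor Cd44 at 2.61 ± 0.45 and the filament Vim at 2.58 ± 0.30. Both Cd44 and Vim are also made by fibroblasts and other cells. Of 18 radial glia and progenitor genes, 10 rose and 0 fell (median 1.16; 13 of 17 rose without 428), among them the matrix protein Tnc at 3.26 ± 0.40, the filament Nes at 2.45 ± 0.22 and the receptor Notch2 at 2.15 ± 0.17.

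The list of partners in glutamate, glutamine and gap junction pathways also held genes outside those pathways, S100a6 and Mthfd1 among them. Of its 22 genes tested, 7 rose and 2 fell (median 0.37), or 10 and 2 of 21 without 428. Among the called genes that averaged 50 counts or more, the largest changes were those of the calcium-binding S100a6 at 3.38 ± 0.42, the folate enzyme Mthfd1 at 1.39 ± 0.15 and pyruvate carboxylase Pcx at 1.26 ± 0.22. Of 15 neuron markers, 12 fell and 0 rose (median -0.99; 14 fell without 428), including the vesicular glutamate transporter Slc17a7 at -1.58 ± 0.17 and neuronal tubulin Tubb3 at -1.39 ± 0.11. The neuron sum was 5376 to 6984 CPM with pyraclostrobin against 12036 to 13591 CPM in vehicle.

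Of 9 mural, fibroblast and meningeal genes, 8 rose (median 2.28; 8 of 8 without 428), led by smooth muscle actin Acta2 at 3.99 ± 0.31, and their sum over the 12 listed genes was 1293 to 1800 CPM against 110 to 234 CPM. All 10 microglia genes tested rose (median 1.93; 9 of 9 without 428), with Cd68 at 2.96 ± 0.22, and the 14 listed summed to 192 to 294 CPM against 50.6 to 72.8 CPM. Of 10 genes of dividing cells 5 rose (median 1.84), or 7 of 7 without 428. Of 7 oligodendrocyte lineage genes, 2 rose and 1 fell (4 and 1 of 6 without 428), with a list sum of 221 to 343 CPM against 121 to 227 CPM, while Sox10, Mag, Mobp, Gpr17 and Enpp6 had at most 3 counts in every vehicle library. The 1 endothelial gene tested rose with and without 428. The 9 on that list summed to 19.4 to 30.8 CPM against 5.52 to 12.1 CPM, and Cldn5, Cdh5, Tek, Tie1 and Ly6c1 had at most 3 counts in every vehicle library.

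The screen allowed the same question for a class of compounds. Its values are log2 deviations from each gene's median after the authors' batch correction, so they compare libraries and not genes. A set of 11 inhibitors, chosen by known target, was compared with the other chemicals in limma. It may not hold every such inhibitor in the screen. Those of complex I were fenpyroximate, pyridaben, rotenone and tebufenpyrad. Those of complex III were azoxystrobin, cyazofamid, famoxadone, fenamidone, fluoxastrobin, pyraclostrobin and trifloxystrobin. Gfap, Aqp4, Slc1a3, Gja1 and Sox9 were higher with the inhibitors, and Slc1a2 was not. Of the 9 glial genes 5 were higher and 0 lower at an adjusted p under 0.05, where 8.76% of 13304 genes were higher and 15.6% lower.

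Gja1 differed most clearly, by 0.42 ± 0.07 (SE, adjusted p = 1.70e-07, limma), and was above the median of the other chemicals in 10 of 11 inhibitors. Sox9 was higher by 0.32 (adjusted p = 0.00104), Gfap by 0.54 ± 0.14 (adjusted p = 0.00186), Slc1a3 by 0.20 ± 0.067 (adjusted p = 0.0163) and Aqp4 by 0.38 ± 0.13 (adjusted p = 0.0202). Aqp4 was above the median of the others in 11 of 11 inhibitors. Slc1a2 differed by 0.11 ± 0.064 (95% interval -0.018 to 0.23, adjusted p = 0.239), Glul by 0.078 (adjusted p = 0.161), Fabp7 by 0.11 (adjusted p = 0.362) and Aldh1l1 by 0.43 ± 0.21 (adjusted p = 0.137). Without fenamidone 3 of the 9 passed in place of 5. Among related genes, 15 of 29 other astrocyte genes were higher and 1 lower (median 0.18), 8 of 18 reactive genes were higher (median 0.43) and 7 of 18 radial glia and progenitor genes were higher (median 0.22). In the same fit 14 of 15 neuron markers were lower (median -0.32) and 7 of 10 mural, fibroblast and meningeal genes higher (median 0.58), and their part in the glial differences was not tested. The pyraclostrobin library of the screen is the one numbered 428.

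The 11 compounds spread widely. Fenamidone, given at 10 uM, had the highest median of the 9 genes among all 297 chemicals, at 0.62, with Gfap at 1.01, Gja1 at 0.80 and Slc1a2 at -0.45. Pyraclostrobin at 0.1 uM ranked 2 (median 0.48), famoxadone at 10 uM ranked 4 (0.42), fenpyroximate at 0.1 uM ranked 5 (0.41) and rotenone at 0.01 uM ranked 15 (0.30). Fluoxastrobin at 1 uM, cyazofamid at 10 uM and tebufenpyrad at 0.01 uM had medians of 0.18, 0.18 and 0.11. Azoxystrobin at 0.1 uM had 0.04, trifloxystrobin at 10 uM 0.039 and pyridaben at 0.1 uM 0.00. Doses differ between most of these compounds, so that the values stand side by side and no pair was tested.

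**Figure D2:**
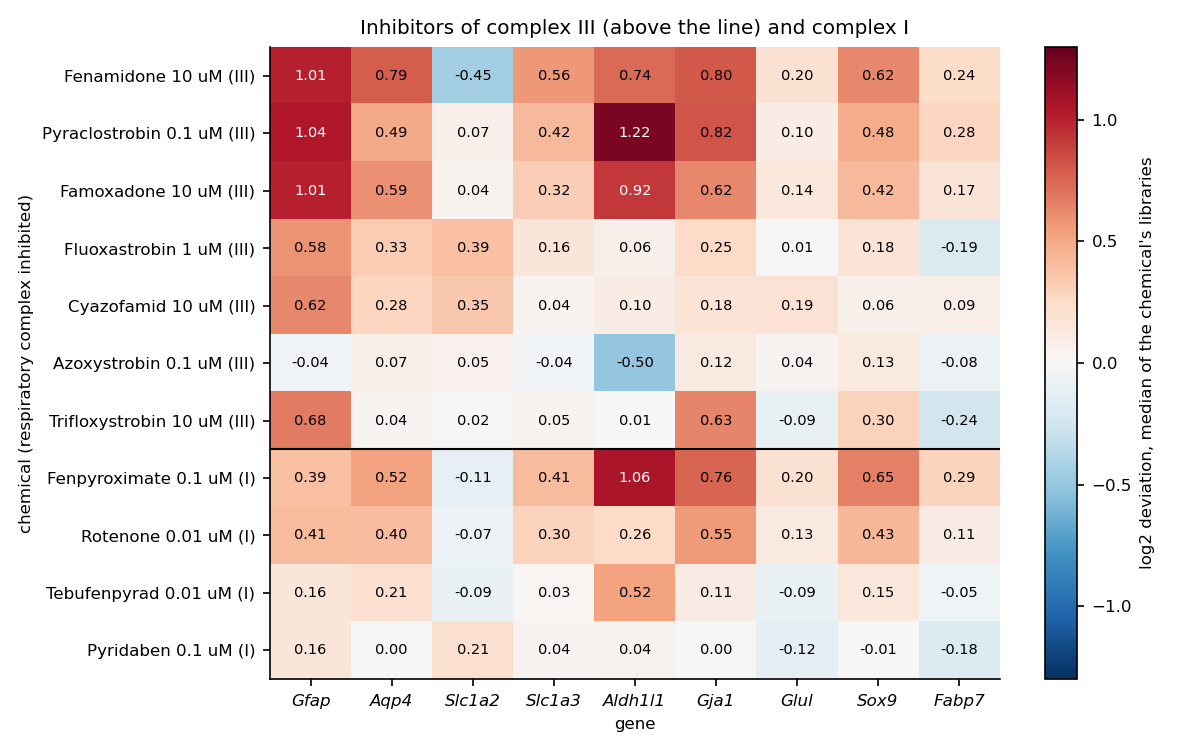
Log2 deviation of 9 glial genes (columns) for the complex I and III inhibitors of the screen (11 chemicals as rows, each the median of its libraries), coloured from low to high. Gja1 runs from -0.001 in pyridaben to 0.82 in pyraclostrobin, while Slc1a2 runs from -0.45 in fenamidone to 0.39 in fluoxastrobin.

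Repeat libraries of a chemical were then compared. For 14 repeated chemicals, topotecan left aside, the median of the 9 genes had an SD within a chemical of 0.26, against 0.19 between chemicals and 0.19 between vehicle libraries. The spread within a chemical was 0.52 for Gfap, 0.57 for Aqp4 and 0.59 for Aldh1l1 but 0.13 for Glul. Fenamidone had 1 library at 0.20 and another at 0.93, in which Slc1a2 was 0.025 and -0.92. Rotenone libraries had medians of 0.46 and 0.12, famoxadone 0.35 and 0.49, and chlorothalonil, a thiol-reactive fungicide, -0.042 and -0.92. These libraries are among those that set the SD within a chemical, and a gap between a pair of libraries spreads more than single libraries do. No pair was tested.

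Across all 297 chemicals the median of the 9 genes ran from -0.99 for TCMTB, a thiocyanate biocide, to 0.62 for fenamidone, and it ran from -0.77 to 0.52 across vehicle libraries. Only fenamidone was above every vehicle library, and only TCMTB was below every one. With TCMTB Fabp7 was at -1.69, Gfap at -1.49, Slc1a3 at -1.19 and Gja1 at -0.99, but Slc1a2 was at 0.36. Carbaryl, a carbamate insecticide, came next at -0.70 and had the lowest Gfap, -1.82, and the lowest Aqp4, -1.74, of all chemicals. Each of these had 1 library. Taken as medians over a chemical's libraries, the highest values of these genes were 1.36 for Gfap with piperonyl butoxide, 1.23 for Aqp4 with bensulide, 0.82 for Gja1 with pyraclostrobin and 1.67 for Aldh1l1 with d-cis,trans-Allethrin.

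**Figure D3:**
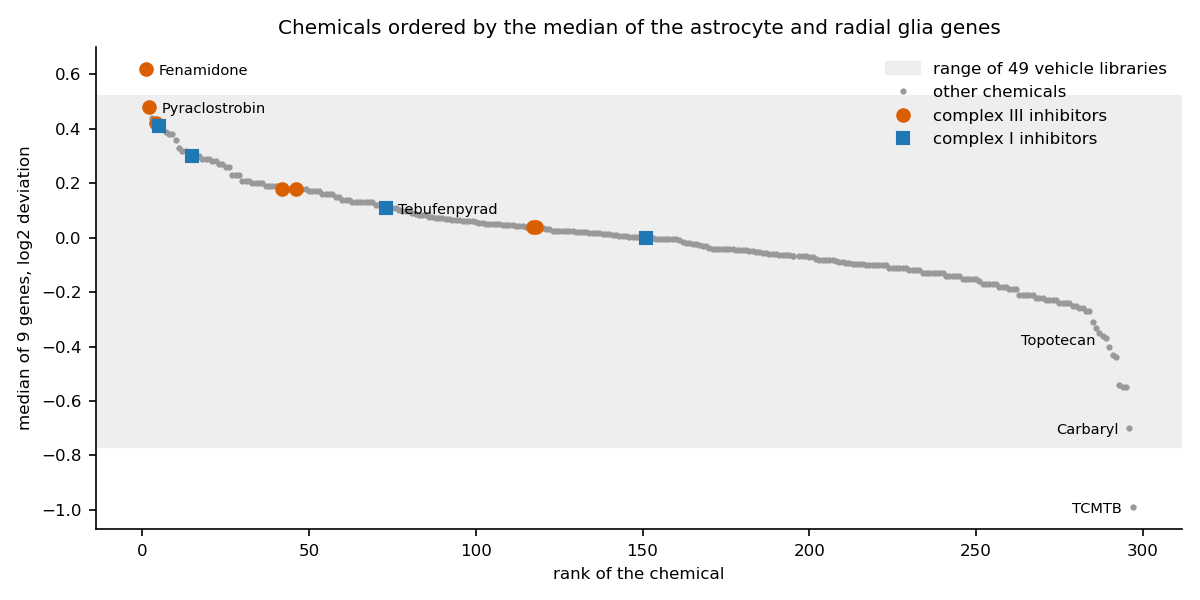
Median log2 deviation of the 9 glial genes for each of 297 chemicals in rank order, with complex I inhibitors, complex III inhibitors and topotecan marked and the range of 49 vehicle libraries (-0.77 to 0.52) shown. All chemicals but fenamidone and TCMTB lie inside the vehicle range, and 5 of the 11 inhibitors are among the first 20.

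Topotecan, an inhibitor of topoisomerase 1, served as positive control, and with it Gfap, Aqp4, Slc1a2, Slc1a3 and Aldh1l1 fell. In limma 5 of the 9 genes fell and 1 rose, where 20.9% of all genes fell and 24.9% rose. Gfap was between -1.20 and -0.064 (median -0.76) in 32 topotecan libraries and between -1.16 and 0.92 (median -0.05) in 49 vehicle libraries. All 32 lay below the vehicle median, although the ranges overlapped, and Gfap fell by 0.72 ± 0.088 (adjusted p = 4.51e-11). Aqp4 was between -1.31 and -0.05 (median -0.55) and fell by 0.50 ± 0.085 (adjusted p = 4.91e-07), also with 32 of 32 libraries below the vehicle median. Slc1a3 was between -0.92 and 0.004 (median -0.50) and fell by 0.50 ± 0.051 (adjusted p = 3.10e-14).

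Slc1a2 was between -0.80 and -0.16 (median -0.37) with topotecan and between -0.80 and 1.08 (median -0.061) in vehicle, and it fell by 0.38 ± 0.051 (adjusted p = 9.34e-10). Here Slc1a2 moved in the same direction as Gfap, Aqp4 and Slc1a3. Aldh1l1 spread more widely, from -2.29 to 0.79, and fell by 0.43 ± 0.14 (adjusted p = 0.00906). Sox9 was between -0.39 and 0.51 (median 0.10) and rose by 0.16 ± 0.051 (adjusted p = 0.00952), with 25 of 32 libraries above the vehicle median. Gja1 (-0.10, 95% interval -0.21 to 0.0061), Glul (0.0078, -0.044 to 0.06) and Fabp7 (-0.028, -0.16 to 0.11) did not pass. For Gfap, Aqp4, Slc1a2 and Slc1a3 a two-sided permutation test gave p = 2e-05, the smallest that its resamples can give.

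Topotecan is known to lower long genes, and Slc1a2 and Aldh1l1 span 132 and 114 kb in mm9. Of genes of 100 kb or more, 65.7% fell with a median of -0.23. Gfap and Aqp4 are genes of 13.6 and 14.3 kb, and of genes between 10 and 20 kb 8.34% fell, with a median of 0.073. Gja1, at 13.1 kb, is in that class too. Slc1a3 spans 76.6 kb, and of genes between 50 and 100 kb 28% fell, with a median of -0.02. Sox9, which rose, spans 5.54 kb, and of genes under 10 kb 32.6% rose, with a median of 0.083. Glul and Fabp7, which did not pass, are in the class of Sox9. The part of gene length in the values of single glial genes was not tested. Of 15 neuron markers 10 fell and 3 rose (median -0.22), of 10 genes of dividing cells 5 fell and 0 rose (median -0.35), of 29 other astrocyte genes 12 fell and 5 rose, and of 18 reactive astrocyte genes 5 rose and 1 fell. The part of these in the glial values was not tested.

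**Figure D4:**
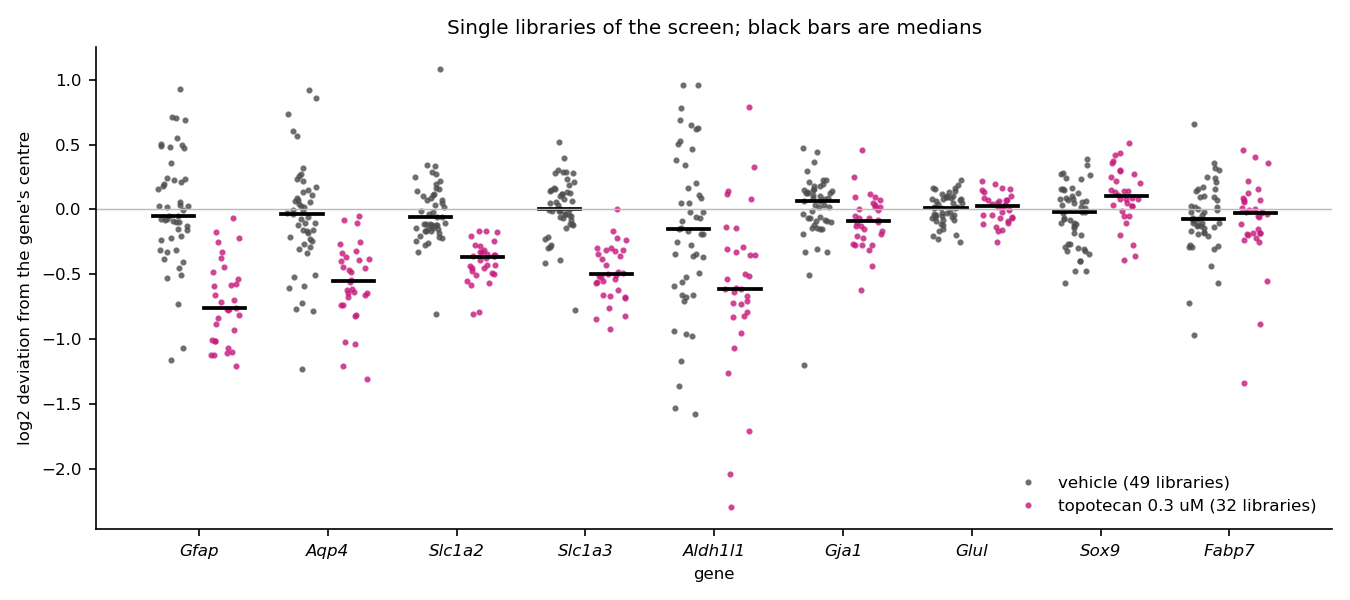
Log2 deviation of each of 9 glial genes in the screen for 49 vehicle and 32 topotecan libraries, with 1 point a library and a line at the group median. Gfap, Aqp4, Slc1a2 and Slc1a3 sit lower with topotecan, Sox9 slightly higher, and Glul at 0.013 and 0.029 overlaps throughout.

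The study drew 6 clusters of chemicals from these same expression values, so the counts below describe the clusters and support nothing further. Cluster 2, which holds 7 of the 11 inhibitors and oxyfluorfen, had 6 of the 9 glial genes higher (12.5% of all genes were higher and 20.1% lower). These were Gja1 by 0.57, Gfap by 0.68, Aldh1l1 by 0.69, Aqp4 by 0.44, Sox9 by 0.42 and Slc1a3 by 0.28, and Slc1a2 differed by -0.03. Cluster 3, of 5 chemicals, had Slc1a2 higher by 0.42 in 5 of 5 chemicals and Gja1 lower by 0.52 and Slc1a3 by 0.36 in all 5 (2.30% of genes higher, 1.62% lower).

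Both glutamate transporters were lower in cluster 5, which holds topotecan, camptothecin and irinotecan and so shares topotecan with the comparison above, with Slc1a3 at -0.54 and Slc1a2 at -0.39 (2.12% of genes higher, 6.08% lower). Without camptothecin 0 of the 9 passed. In cluster 6 Aqp4 was lower by 0.44 and Slc1a2 by 0.34, each in 7 of 7 chemicals (11.1% higher, 14.5% lower). Cluster 1 had 1 lower gene, Glul at -0.15 (6.36% higher, 6.52% lower). In cluster 4 limma called 0 of the 9, with Aldh1l1 at -0.98 and Sox9 at -0.32 reaching an unadjusted p under 0.05 (0.301% of genes higher, 0.586% lower).

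The genes also varied together in cultures that received no chemical. Over the 49 vehicle libraries, all 28 pairs among the 8 genes other than Slc1a2 correlated positively, with Pearson's r from 0.12 to 0.80 and a median of 0.43. The closest pair was Gfap with Aqp4. Of the 8 pairs with Slc1a2, 7 were negative, from -0.50 with Gja1 upward. By Spearman's rho these pairs ran from -0.37 with Fabp7 to 0.14 with Sox9, with -0.27 for Gja1. The share of positive pairs among other genes was not computed. Over the 297 chemicals, which share the normalization and in part the culture batches, the 28 pairs ran from 0.073 to 0.74 and those with Slc1a2 from -0.25 to 0.0062.

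**Figure D5:**
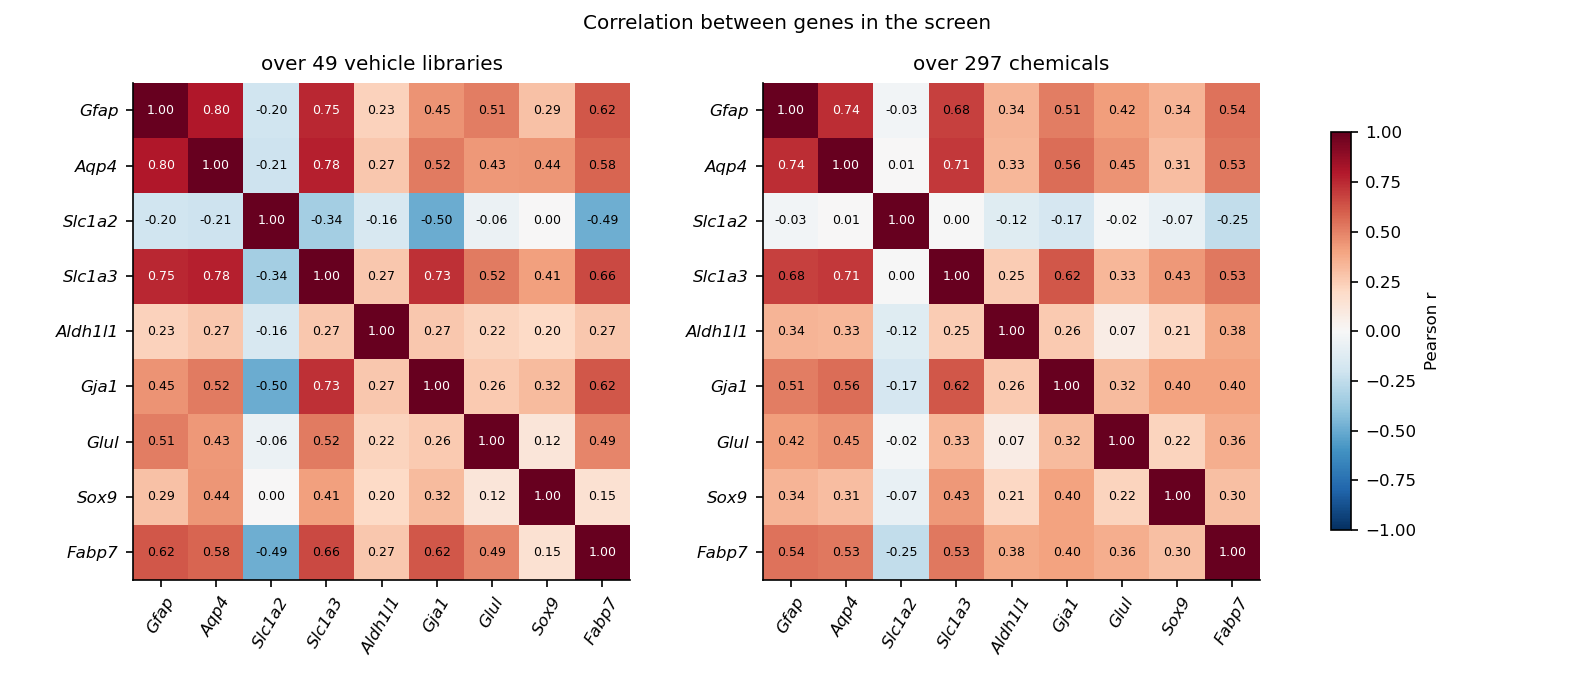
Pearson's r between each pair of the 9 genes over 49 vehicle libraries (left) and 297 chemicals (right), coloured from -1 to 1. The Slc1a2 row and column are near 0 or negative in both panels, down to -0.50 with Gja1 in vehicle, while Gfap, Aqp4 and Slc1a3 form the block of highest values.

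Set against the median of the other genes, Slc1a3 had r = 0.84 (rho = 0.76), Aqp4 0.77 (0.65), Gja1 0.68 (0.46), Gfap 0.68 (0.67) and Fabp7 0.64 (0.40). Glul had 0.51 (0.53) and Sox9 0.39 (0.37). These 7 passed a permutation test with Benjamini-Hochberg adjustment over the 19 relations computed, with adjusted p from 3.2e-05 to 0.0089 for r and 4.7e-05 to 0.019 for rho, and r stayed between 0.35 and 0.75 without the 2 libraries farthest from the median. Slc1a2 had r = -0.39 (adjusted p = 0.017, permutation test) but rho = -0.10 (adjusted p = 0.52), and r was 0.012 without those 2 libraries, so its relation rests on them. For Aldh1l1 r was 0.34 (adjusted p = 0.018, permutation test) and rho 0.18 (adjusted p = 0.25), and r became 0.093.

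One vehicle library lay far from the others. Its median over the 9 genes was -0.77, with Aldh1l1 at -1.58, Aqp4 at -1.23 and Gja1 at -1.20, whereas Slc1a2 was at 1.08, the highest of all vehicle libraries, and the neuron list at 0.26. The next lowest vehicle library had a median of -0.29 and Slc1a2 at -0.14. Within the 32 topotecan libraries Slc1a2 had r = 0.072 with the median of the others.

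By Spearman correlation over the 297 chemicals, genes most like the median of the 9 included Kcnj10, an inwardly rectifying potassium channel of glia, at 0.64, the lipoprotein Apoe at 0.61, the RNA-binding protein Qk at 0.60 and the endothelin receptor Ednrb at 0.59. Gfap and Aqp4 were each other's nearest gene at 0.72, and the nearest to Slc1a3 was Aqp4 at 0.70. The nearest to Slc1a2 were Atp2a2, a calcium pump of the endoplasmic reticulum, Diras2 and Arhgap20, each at 0.63, and none of the glial genes was among its first 3.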

How the data were processed

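Polyadenylated RNA was sequenced with a TruSeq kit, and per the methods and labels the reads were filtered with TagDust and aligned with TopHat to mm9. The authors deposited raw exon counts per gene for pyraclostrobin, and for the screen log10 RPKM values that they quantile-normalized, centred on each gene's median and corrected for batch with a mixed model. Those log10 values were turned into log2 deviations, so that they hold no level and a batch cannot be refitted. Batch removal can also shift values of chemicals with 1 library. Another 6 columns of counts, from the sulforaphane experiment, carry identical names and were not analysed here.

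Counts were tested in edgeR 4.0.16 (R 4.3.3, quasi-likelihood, TMM, at least 10 counts in at least 4 libraries, adjusted p under 0.01), and TMM factors were 0.928 to 1.06. Screen values were tested in limma 3.58.1 with a variance trend (adjusted p under 0.05), with each chemical as the median of its libraries in comparisons of sets. DESeq2 1.42.0 was an alternative. Correlations used 100000 permutations. The edgeR and limma scripts were tested on simulated data. Intervals are at 95%.

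The glial genes and the 10 lists beside them were chosen with earlier results of these data known. Of each list the 3 genes with the largest called change in pyraclostrobin and a mean of at least 50 counts could be named, and for likeness the 5 genes most correlated with the median of the glial genes, of which 1 is not reported here. Gene positions are from an mm9 annotation, and promoters from RefSeq. The 2 libraries numbered 428 are in both tables. No pair of count libraries was identical (0 of 28 pairs). Intervals cover the spread between libraries only.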

Additional observations from a re-analysis of the deposited data

Results flagged for a closer look

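In 29 sets of 4 values a check was made for a library far from the rest of its group. The measure was the gap to the nearest library over the range of the group. The 95% limit was passed by 15 sets, where chance passes about 1 in 20 for a single set. The genes were measured in the same libraries and vary together, so the sets are not independent. In 14 of the 15 the library was one numbered 428. In vehicle its gap took a share of the range of 0.938 for Gfap, 0.848 for Aqp4, 0.931 for Slc1a3, 0.881 for Aldh1l1, 0.965 for Gja1, 0.880 for Glul, 0.926 for Sox9 and 0.950 for Fabp7, each time as the highest library. In pyraclostrobin the share was 0.942 for Gfap, 0.910 for Aqp4, 0.890 for Slc1a3, 0.928 for Gja1, 0.877 for S100b (10 counts) and 0.867 for Fabp7, again as the highest. The sums of the radial glia and progenitor list were 784 CPM in vehicle library 428 against 663 to 682 in the others, and those of the other astrocyte list 4990 against 2782 to 2991. In the screen 1 of the 4 libraries of diethyltoluamide, an insect repellent, was lowest for Slc1a2 at -0.41 against -0.12 to -0.07, a share of 0.843. The causes were not tested.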

How the results depend on the processing

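Of 490 alternative values for single genes, 408 kept their direction and side of the threshold, 43 lost the threshold, 34 gained it and 5 changed sign. The cause of the changes below was not tested unless fewer genes or samples make it plain. For pyraclostrobin, where the main count was 2631 genes, calls were 4773 without the 2 libraries numbered 428 and 4301 at a threshold of 0.05, with 8 glial genes higher and 1 lower, and 5 higher. DESeq2 called Slc1a3, Gja1 and Sox9 and gave no adjusted p for Gfap. Leaving out 1 library at a time gave 1682 (without vehicle library 703) to 4052 genes (without vehicle library 428), 2 to 8 glial genes higher and 0 to 1 lower.

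With the library number as a replicate block, 7 glial genes rose, Gja1 and Sox9 together with Gfap, Aqp4, Slc1a3, Aldh1l1 and Fabp7. Deviations of same-numbered libraries correlated at 0.38, 0.11, -0.02 and 0.17 for 428, 702, 703 and 704. Between groups, libraries of different numbers among 702 to 704 correlated at 0.02 to 0.22, so pairing within these was not taken as shown. Libraries numbered 428 correlated at -0.32 to -0.03 with those of other numbers in the other group. The unpaired fits count that difference within the spread. The paper calls its vehicle controls matched, but what libraries of the same number share is not given in the sources used here. The block without the 428 libraries, chosen after seeing the data, called 4517 genes, with 8 glial genes higher and 1 lower.

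Testing only genes with an SD above 0.1 on the log10 scale left 1788 calls for topotecan (0 glial genes higher, 3 lower). It left 644 for the inhibitors (2 higher) and 372, 1076, 168, 57, 276 and 438 for clusters 1 to 6. Cluster 2 had 3 higher glial genes. Clusters 1, 5 and 6 had 0 lower, and cluster 3 had 0 higher and 0 lower. Genes of smaller spread were not tested there, so a glial gene that lost its call may not have been tested. The log2 SD over chemicals was 0.43 to 0.70 for Gfap, Aqp4 and Aldh1l1 and 0.13 to 0.27 for the other glial genes. A threshold of 0.01 left 1095, 149, 30 and 2160 genes in clusters 1, 3, 4 and 6, with 0 glial genes lower in cluster 1, 1 lower in clusters 3, 5 and 6, and 3 higher with the inhibitors. Single libraries in place of chemical medians gave 62 genes in cluster 4 and 6834 in cluster 5, where topotecan supplies 32 libraries, with 6 glial genes lower in cluster 5, 1 higher in cluster 1 and 1 lower in clusters 3 and 6. Against vehicle libraries these were 305 (0 higher, 1 lower) in cluster 3, 6177 (1 higher, 5 lower) in cluster 5 and 1 lower in cluster 6.

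Leaving out 1 chemical at a time gave 1110 to 1706 genes in cluster 1 (0 to 1 glial genes lower), 3627 to 4405 in cluster 2 (5 to 7 higher), 120 to 433 in cluster 3 (1 to 2 lower), 24 to 42 in cluster 4, 352 to 1137 in cluster 5 (0 to 2 lower), 2530 to 3191 in cluster 6 (0 to 1 higher, 1 to 2 lower) and 2454 to 3529 with the inhibitors (3 to 5 higher). Counts in cluster 3 fell most without dicofol and in cluster 5 without camptothecin. Over topotecan libraries, Aqp4, Slc1a3 and Glul, 3 genes, correlated with the others by r (0.45, 0.51 and 0.57), but none by rho (0 of 9, adjusted p of 0.073 to 1.00), with r at 0.19, 0.32 and 0.40 without the 2 farthest libraries, and r changed sign for Slc1a2 (0.072), Aldh1l1 (-0.026), the reactive (-0.20), neuron (0.47) and mural, fibroblast and meningeal lists (-0.0029). Ranking chemicals by the mean kept 13 of the first 20, and by scaled values 16. The sulforaphane alternatives were not run. Depth limits S100b.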

Other observations

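Glul varied least of the 9 genes, with an SD of 0.13 over chemicals and 0.11 over vehicle libraries on the log2 scale, and Aldh1l1 most, with 0.70 and 0.62. Glul lay below every vehicle library in 12 chemicals and above in 8. The lowest was diethylhexyl phthalate at -0.69 and the highest cyprodinil, a fungicide, at 0.33. Sox9 was above every vehicle library in 24 chemicals and Aldh1l1 in 21, while no chemical was above the highest vehicle library for Slc1a2 or Fabp7 (0 of 297 each). With 297 chemicals set against 49 vehicle libraries, some lie outside the vehicle range without any effect. The share over all genes was not computed, so these counts are not read as responses. Most of these chemicals have 1 library, and no test was made.

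Of the lists beside the 9 genes, the other astrocyte genes followed their median most closely over the 49 vehicle libraries (r = 0.87, rho = 0.79, r = 0.78 without the 2 farthest libraries). The reactive list had r = 0.61 (rho = 0.49) and the radial glia and progenitor list 0.59 (0.46). The dividing cell list had r = 0.46 but rho = 0.077, and r was -0.0082 without the 2 farthest libraries, so that it rests on them. The microglia (0.33, 0.27), oligodendrocyte lineage (0.41, 0.28), endothelial (0.37, 0.19), mural, fibroblast and meningeal (0.37, 0.25) and glutamate partner lists (0.29, 0.23) had smaller values of r and rho, and the neuron list had -0.27 and -0.14.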
